A study of Mus musculus with 9 samples.

Results

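The genes for collagen, laminin and integrin chains were followed in TEC (thymic epithelial cells), which form the framework of the thymus and attract, nurse and select developing T cells. Within these families each gene of the count table was taken by its symbol, with no threshold on a measured value, and they made up 71 of the 15080 genes in the count table: 38 collagen genes, 11 laminin genes, 16 integrin alpha genes and 6 integrin beta genes. TEC had been sorted from enzymatically dissociated thymi, and bulk 3′-end libraries were made by MARS-seq, in which a random tag on each captured transcript, its unique molecular identifier (UMI), lets molecules be counted. The rAREG group, 5 libraries, came from young male wild-type mice given 1 µg of recombinant amphiregulin, a ligand of the EGF receptor, into the thymus 10 days before collection. The vehicle group, 4 libraries, came from young male wild-type mice of matched age given PBS into the thymus, also 10 days before collection. Both groups thus share the genotype, the injection into the thymus, the time to collection and the sort, and no uninjected group was analysed here. Whether libraries came from separate mice is not stated in the labels, and p-values here refer to the spread among libraries, which may be technical in part.

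Collagens and laminins are trimers, many of them built from the products of several genes, and integrins are cell-surface dimers of an alpha and a beta chain that bind them. Laminin and collagen IV networks form the basement membrane on which epithelial cells rest, collagen VI links that membrane to the stroma, and fibrillar collagens make the stroma itself. In the thymus, epithelium borders the capsule, the septa and the vessels through such a membrane, and the epithelial integrins that hold to laminin are known from hemidesmosomes, the anchoring junctions of epithelia.

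Total counts were 1523246 to 2159115 UMIs per library, and the 71 genes took 0.276% to 0.351% of them. A count of 3, the limit that a count of 0 allows, equalled 1.39 to 1.94 CPM, the count of a gene relative to the TMM-scaled total of its library, and such limits cover counting error only. All 13 TEC markers were detected in every library, with a summed level of 27470 to 32800 CPM in rAREG libraries and 25400 to 31110 CPM in vehicle libraries. H2-Aa and Cd74, which dendritic and myeloid cells also express, held most of this sum, and the other 11 markers summed to 9003 to 10030 CPM in rAREG libraries and 8742 to 9166 CPM in vehicle libraries. Of the 13, Aire, the regulator of tissue antigens in medullary TEC, was called, higher in rAREG without overlap, at 0.67 ± 0.15 (SE, with an adjusted p of 0.0372 by edgeR) in log2 fold change. Markers of other cells were present too. The 12 fibroblast markers summed to 1148 to 1500 CPM in rAREG libraries and 1184 to 2137 CPM in vehicle libraries, with Pdgfra at 0 in 1 vehicle library. Most of that sum was Dcn, Gsn and Igfbp5, and the other 9 markers summed to 86.0 to 140 CPM in rAREG libraries and 85.8 to 167 CPM in vehicle libraries. The 10 pericyte and smooth muscle markers summed to 1040 to 1393 CPM in rAREG libraries and 1068 to 1275 CPM in vehicle libraries. Kcnj8 was at 0 in 1 rAREG library. Tagln, Rgs5 and Myh11 held most of this sum, with vehicle means of 695, 221 and 129.5 CPM. Des and Notch3 had vehicle means of 56.4 and 32.6 CPM. Acta2, Cspg4, Mcam, Higd1b and Kcnj8 were low, with vehicle means of 6.80, 7.03, 10.4, 5.51 and 1.74 CPM. The 12 endothelial markers summed to 93.6 to 179 CPM in rAREG libraries and 141 to 179 CPM in vehicle libraries. Since these are bulk libraries, fewer cells of a type and less RNA per cell cannot be told apart.

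None of the collagen, laminin or integrin genes passed the test between rAREG and vehicle. Of the 71 genes, 48 passed the filter on low counts and were tested, and edgeR's quasi-likelihood test called 0 of them at an adjusted p under 0.05, where it called 1.05% of all 11636 genes tested. At an unadjusted p under 0.05 there were 9 of 48 genes, against 13.3% of all genes tested. The 6 with higher values in rAREG were Col9a2, Col6a5, Col5a3, Col14a1, Col17a1 and Col27a1, and the 3 with lower values were Itga8, Lamc1 and Lamb1. DESeq2 also called 0 of the 48 (8 of them received no adjusted p, and 6 had an unadjusted p under 0.05), where it called 1.97% of the 10054 genes to which it gave an adjusted p. The authors' deposited table holds a fit of their own, in which 0 of these genes had an adjusted p under 0.05 and the smallest was 0.211, for Col9a2, where 168 genes of the whole table were under 0.05.

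The intervals say how large a difference these libraries could still hold. For 21 of the 48 tested genes the 95% interval of the fold change lay within 1.5-fold in either direction, and for 33 it lay within 2-fold. The genes with narrow intervals were the abundant ones, such as Itgb4, Itga6 and Col4a2, while Col1a2 and Col3a1 had the widest, as the plot of fold changes shows. By fitted value 21 tested genes were higher and 27 lower in rAREG, with a median log2 fold change of −0.042, against −0.0054 over all genes tested. The medians were 0.065 for the 26 tested collagen genes (14 higher, 12 lower), −0.22 for the 9 laminin genes (1 higher, 8 lower) and −0.0082 for the 13 integrin genes (6 higher, 7 lower).

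**Figure D1:**
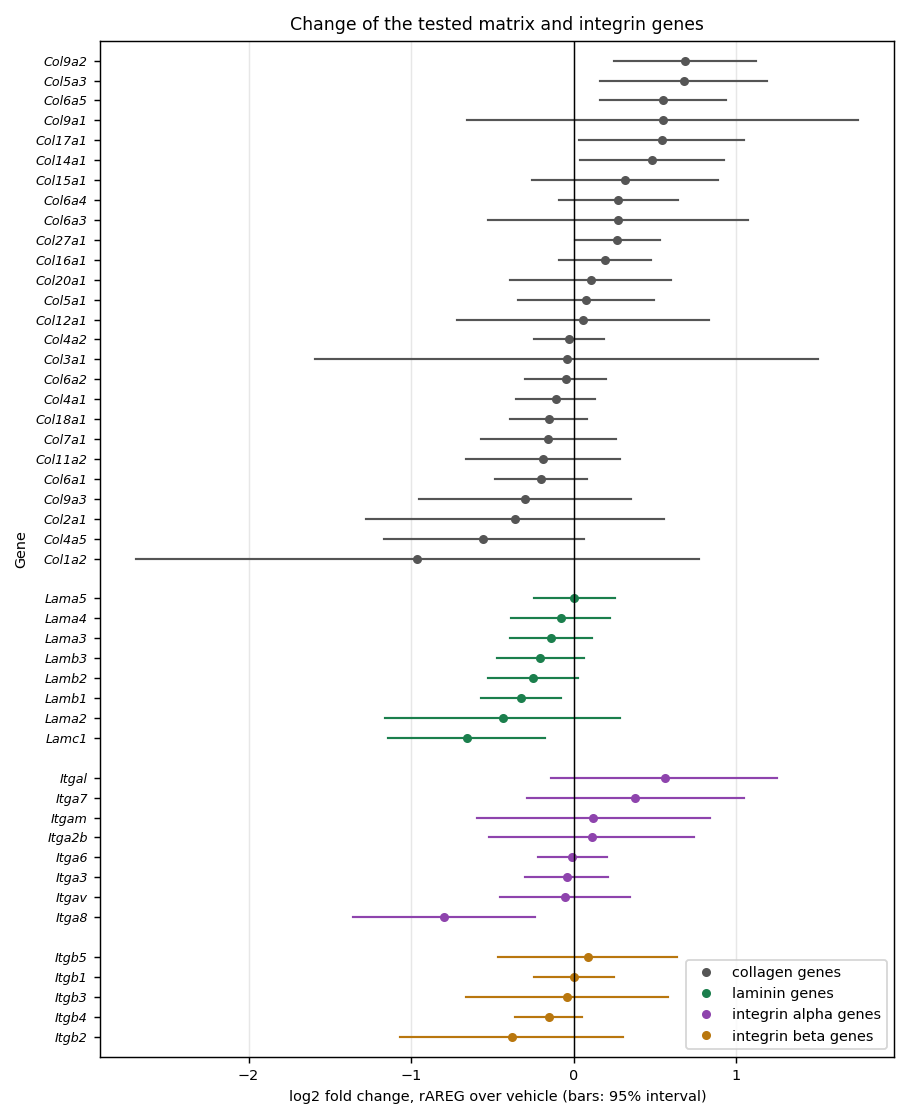
Log2 fold change of rAREG over vehicle (x axis) for 47 of the 48 tested genes (y axis), grouped as collagens, laminins, integrin alpha and integrin beta chains; points are edgeR estimates and bars their 95% intervals. Intervals of 9 genes leave out 0, none of these genes was called, and the laminin points lie left of 0 but for Lama5.

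In level, Itgb4 and Lamb3, both of the complex that anchors epithelial cells to their basement membrane, stood first. A 3′ UMI is counted once per captured molecule, so CPM values of different genes were compared without division by gene length. Whether transcripts of different genes were captured equally well was not tested, which limits each comparison of levels between genes. In vehicle libraries the order ran Itgb4, Lamb3, Col6a2, Col6a1, Col4a1, Itga6, Col18a1 and Col4a2, and these 8 genes held 58.3% of the summed CPM of all 71. Their order rests on small steps: among the 70 pairs of neighbours in the vehicle order, the vehicle libraries of 1 pair did not overlap, Itgb4 over Lamb3. In all, 11 genes averaged at least 100 CPM in vehicle and 35 averaged under 10 CPM. Collagens made up 46.8% of the summed vehicle CPM, laminins 25.1%, integrin beta chains 15.9% and integrin alpha chains 12.2%. The order was close to the same after rAREG, where 9 of the 10 highest genes were among the 10 highest in vehicle. Among the 25 genes at 20 CPM or more over all libraries, the median coefficient of variation was 13.0% between rAREG libraries and 14.2% between vehicle libraries.

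**Figure D2:**
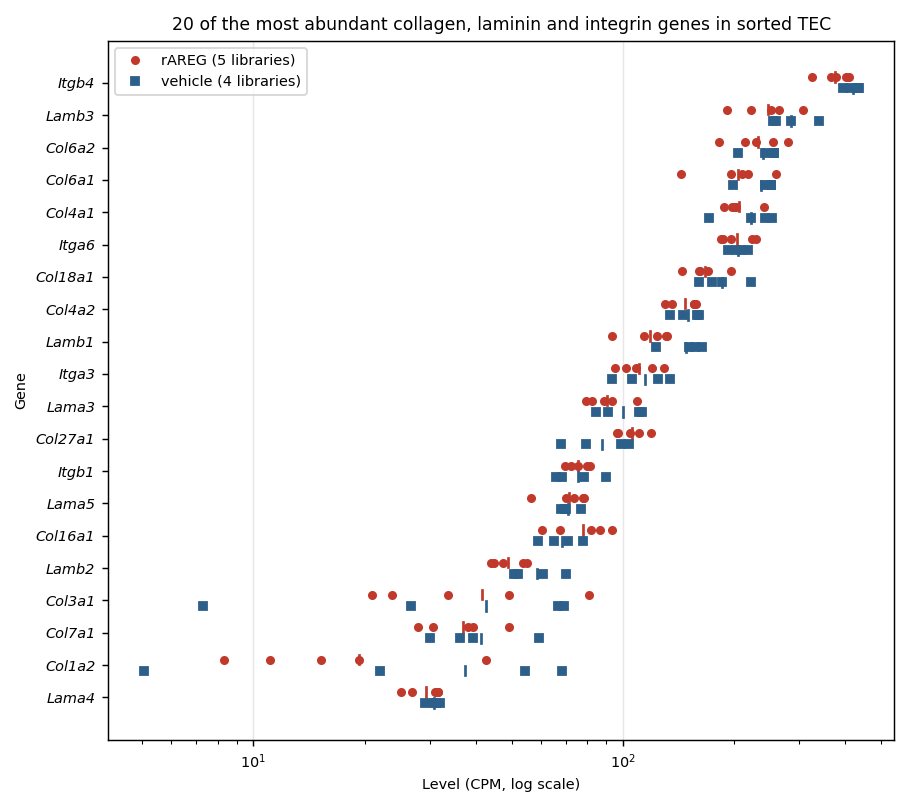
Level in CPM (x axis, log scale) of 20 of the most abundant genes (y axis, in vehicle order) in each of the 5 rAREG libraries (circles) and 4 vehicle libraries (squares); vertical ticks are group means. The groups overlap for each gene shown, and Col3a1 and Col1a2 spread most widely.

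Collagen IV, the network collagen of basement membranes, was abundant in TEC libraries, and neither of its main chains differed between the groups beyond the spread between libraries. Col4a1 (chromosome 8, 11198423 to 11312826, GRCm38) was at 188, 199, 241, 197 and 202 CPM in rAREG libraries, against 253, 222, 243 and 170.5 CPM in vehicle libraries. Col4a2 (chromosome 8, 11312805 to 11449287), whose product joins that of Col4a1 in 1 trimer, was at 136, 156, 158, 129.7 and 156 CPM in rAREG libraries, against 160.5, 159, 146 and 134 CPM in vehicle libraries. The groups overlapped for both genes, and the lowest Col4a1 value was that of vehicle replicate 4. In log2 fold change, Col4a1 was at −0.11 ± 0.12 (SE, with a 95% interval of −0.36 to 0.13 and an adjusted p of 0.737 by edgeR). That of Col4a2 was −0.028 ± 0.10 (SE, with a 95% interval of −0.24 to 0.19 and an adjusted p of 0.944 by edgeR). The ratio of Col4a1 to Col4a2 was 1.40 ± 0.119 over the 5 rAREG libraries and 1.48 ± 0.178 over the 4 vehicle libraries (both ± SD). Col4a5, a chain of other collagen IV trimers, was rarer, at 6.28 ± 2.25 CPM (SD) over the 5 rAREG libraries and 9.13 ± 0.926 CPM (SD) over the 4 vehicle libraries. For Col4a5 the log2 fold change was −0.56 ± 0.30 (SE, with an adjusted p of 0.433 by edgeR). Its relatives Col4a4 and Col4a6 did not pass that filter. Col4a6 was at 3.87, 2.11, 1.39, 0.509 and 3.69 CPM in rAREG libraries, against 4.03, 5.50, 4.30 and 5.05 CPM in vehicle libraries, so its groups did not overlap at 1 to 10 UMIs per library.

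The Col4a1 and Col4a2 genes lie head to head, with annotated starts 21 bases apart on opposite strands, and their promoter windows are shown because both chains of the trimer are encoded from this stretch of DNA. Each window runs from 250 bases before the RefSeq start to 50 bases after it on GRCm38.p6, at chr8:11312777-11313076 on the minus strand for Col4a1 and at chr8:11312555-11312854 on the plus strand for Col4a2. Capitals mark CCAAT and GGGCGG on either strand, so that ATTGG and CCGCCC are the same motifs read from the other strand.
Col4a1: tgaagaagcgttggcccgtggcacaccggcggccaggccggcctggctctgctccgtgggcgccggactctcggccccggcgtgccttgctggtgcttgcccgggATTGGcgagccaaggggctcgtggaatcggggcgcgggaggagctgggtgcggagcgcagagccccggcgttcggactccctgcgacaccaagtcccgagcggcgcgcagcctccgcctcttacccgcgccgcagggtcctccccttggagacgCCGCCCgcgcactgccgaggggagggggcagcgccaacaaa
Col4a2: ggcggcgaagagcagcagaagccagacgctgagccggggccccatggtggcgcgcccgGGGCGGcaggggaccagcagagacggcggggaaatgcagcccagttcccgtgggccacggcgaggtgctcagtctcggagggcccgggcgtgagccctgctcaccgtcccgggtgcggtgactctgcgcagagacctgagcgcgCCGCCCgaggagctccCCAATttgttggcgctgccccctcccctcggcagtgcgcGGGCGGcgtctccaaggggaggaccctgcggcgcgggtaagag
The windows overlap by 78 bases, and the GGGCGG nearest the Col4a2 start is the CCGCCC of the Col4a1 window. GC content was 74.0% in the Col4a1 window and 73.7% in the Col4a2 window. Of all 32851 RefSeq windows of this kind, 37.4% hold CCAAT on either strand and 35.7% hold GGGCGG; of the 54 windows matched to 49 of the 71 genes, 25.9% hold CCAAT and 57.4% hold GGGCGG. Over the 9 libraries, log2 CPM of Col4a1 and Col4a2 had a Pearson r of 0.67 (exact permutation test, p = 0.0583; adjusted over 5 relations, 0.0583) and a Spearman rho of 0.77 (p = 0.0214; adjusted, 0.0267), and r was 0.72 without the 2 libraries farthest from the median of Col4a1.

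Collagen VI, which forms beaded filaments next to basement membranes, was the most abundant collagen in mean level: Col6a1 and Col6a2 summed to 437 ± 77.3 CPM over the 5 rAREG libraries and 476 ± 48.7 CPM over the 4 vehicle libraries (both ± SD), where Col4a1 and Col4a2 summed to 352 ± 30.4 CPM in rAREG and 372 ± 46.9 CPM in vehicle. Col6a2 (chromosome 10, 76595762 to 76623630) was at 214, 255, 279.7, 182 and 229 CPM in rAREG libraries, against 256, 256, 242 and 205 CPM in vehicle libraries. Col6a1 (chromosome 10, 76708792 to 76726168) encodes a partner chain on the same chromosome, with 85161 bases between the bodies of the genes. Col6a1 was at 217, 209.9, 259, 143 and 196 CPM in rAREG libraries, against 251, 243, 252 and 198 CPM in vehicle libraries. rAREG replicate 4 was the lowest library and rAREG replicate 3 the highest for both genes, and the groups overlapped. For Col6a2 the log2 fold change was −0.049 ± 0.12 (SE, with a 95% interval of −0.30 to 0.20 and an adjusted p of 0.907 by edgeR). That of Col6a1 was −0.20 ± 0.14 (SE, with a 95% interval of −0.49 to 0.081 and an adjusted p of 0.549 by edgeR). Their log2 CPM had a Pearson r of 0.87 over the 9 libraries (exact permutation test, p = 0.00579; adjusted over 5 relations, 0.00965) and a Spearman rho of 0.78 (p = 0.0172; adjusted, 0.0267), with r at 0.64 without rAREG replicates 3 and 4. Col6a3, the usual partner of both, was far rarer, at 5.81 ± 2.35 CPM (SD) over the 5 rAREG libraries and 4.70 ± 1.87 CPM (SD) over the 4 vehicle libraries.

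Col6a5 (chromosome 9, 105856078 to 105960643), which encodes a chain that can stand in for the alpha3 chain of collagen VI, was among the few genes whose groups did not overlap. It was at 24.5, 19.5, 19.0, 24.9 and 19.5 CPM in rAREG libraries, against 14.1, 16.5, 12.9 and 15.1 CPM in vehicle libraries. Each rAREG library lay above the highest vehicle library, by a small margin. On the log2 scale the difference was 0.55 ± 0.18 (SE, with a 95% interval of 0.16 to 0.94 and an adjusted p of 0.167 by edgeR). The neighbouring paralog Col6a4 was at 31.9 ± 5.03 CPM (SD) over the 5 rAREG libraries and 26.6 ± 5.97 CPM (SD) over the 4 vehicle libraries. The log2 fold change of Col6a4 was 0.27 ± 0.18 (SE, with an adjusted p of 0.526 by edgeR). The sources used here do not say how reads that match both genes were counted. Col7a1, the collagen of the anchoring fibrils below epithelial basement membranes, was at 37.0 ± 8.31 CPM (SD) over the 5 rAREG libraries and 41.3 ± 12.7 CPM (SD) over the 4 vehicle libraries. Col7a1 had a log2 fold change of −0.16 ± 0.20 (SE, with an adjusted p of 0.791 by edgeR). Of the 6 tested genes of collagens VI and VII, 3 were higher and 3 lower in rAREG by value, and 0 were called.

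Fibrillar collagens, the fibre formers of connective tissue, had 7 tested genes, of which 3 were higher and 4 lower by value and 0 were called. Col5a3 (chromosome 9, 20770050 to 20815067), a chain of collagen V, which nucleates fibrils, had the smallest p of them. It was at 36.1, 37.5, 18.6, 28.0 and 23.7 CPM in rAREG libraries, against 18.1, 9.91, 18.6 and 24.7 CPM in vehicle libraries. The groups overlapped, with rAREG replicates 1 and 2 highest and vehicle replicate 2 lowest. The fitted log2 fold change was 0.68 ± 0.24 (SE, with a 95% interval of 0.16 to 1.19 and an adjusted p of 0.210 by edgeR). Col27a1, known best from cartilage, was the most abundant fibrillar collagen gene, at 106 ± 9.59 CPM (SD) over the 5 rAREG libraries and 87.5 ± 16.8 CPM (SD) over the 4 vehicle libraries. For Col27a1 the log2 fold change was 0.27 ± 0.13 (SE, with an adjusted p of 0.363 by edgeR). Col5a1 was at 14.9 CPM in rAREG and 14.1 CPM in vehicle, Col11a2 at 16.7 CPM in rAREG and 18.9 CPM in vehicle, and Col2a1, the cartilage collagen, at 11.6 CPM in rAREG and 14.9 CPM in vehicle, all with adjusted p above that of Col27a1.

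Col1a2 and Col3a1, the fibrillar collagens of fibroblasts, varied widely between libraries of the same group. Col3a1 (chromosome 1, 45311538 to 45349706) was at 49.0, 23.7, 20.9, 33.6 and 81.2 CPM in rAREG libraries, against 69.4, 66.6, 26.7 and 7.29 CPM in vehicle libraries. Col1a2 (chromosome 6, 4504814 to 4541544) was at 19.4, 11.1, 8.35, 15.3 and 42.7 CPM in rAREG libraries, against 54.4, 68.3, 22.0 and 5.05 CPM in vehicle libraries. Replicate 5 was the highest rAREG library for both, and replicate 4 the lowest vehicle library for both. Col3a1 had a log2 fold change of −0.044 ± 0.66 (SE, with a 95% interval of −1.59 to 1.5 and an adjusted p of 0.985 by edgeR). Col1a2 had one of −0.96 ± 0.74 (SE, with a 95% interval of −2.69 to 0.77 and an adjusted p of 0.638 by edgeR). With each library left out in turn it ran from −0.44 to 0.31 for Col3a1 and from −1.49 to −0.51 for Col1a2. Col1a1, the partner of Col1a2 in collagen I, had 0 to 6 UMIs in rAREG libraries and 2 to 9 UMIs in vehicle libraries and was not tested.

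The levels of both genes followed each other and the fibroblast markers. These relations were examined after their values were seen and are given as descriptions, without p-values. The permutation test was nevertheless run on Col1a2 with Col3a1 and on each of these genes with the summed 12 fibroblast markers. The resulting p-values entered the adjustment given above for the collagen IV and VI chains. Over the 9 libraries log2 CPM of Col1a2 and Col3a1 had a Pearson r of 0.92 and a Spearman rho of 0.88, and r was 0.90 without vehicle replicates 2 and 4. Against the summed 12 fibroblast markers, Col1a2 had r of 0.86 and rho of 0.88, and Col3a1 had r of 0.67 and rho of 0.75. Without vehicle replicates 1 and 2 these r were 0.79 for Col1a2 and 0.56 for Col3a1. Against the 9 markers other than Dcn, Gsn and Igfbp5, r was 0.89 for Col1a2 and 0.80 for Col3a1. Of the 9 fibroblast markers that were tested, 7 were lower and 2, Pdgfrb and Pi16, higher in rAREG by value, with a median log2 fold change of −0.32 and 0 called. The part of the fibroblast content in the group difference of either collagen was not tested.

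Relative to Col3a1, Col1a2 was lower in each rAREG library than in any vehicle library. The UMIs of Col1a2 over those of Col3a1 were 30 over 76, 21 over 45, 18 over 45, 30 over 66 and 81 over 154 in rAREG libraries, ratios of 0.395, 0.467, 0.400, 0.455 and 0.526. In vehicle libraries they were 108 over 138, 124 over 121, 46 over 56 and 9 over 13, ratios of 0.783, 1.02, 0.821 and 0.692. Pooled, 180 Col1a2 UMIs stood beside 386 of Col3a1 in rAREG, and 287 beside 328 in vehicle, ratios of 0.466 and 0.875. The ratio of this pair was noticed after its values were seen and carries no test. Of all 1128 pairs of tested genes 5.5% had ratios that did not overlap between the groups. By the size of the difference, −0.88 on the log2 scale of the ratio, 107 of the 1128 pairs were farther apart.

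**Figure D3:**
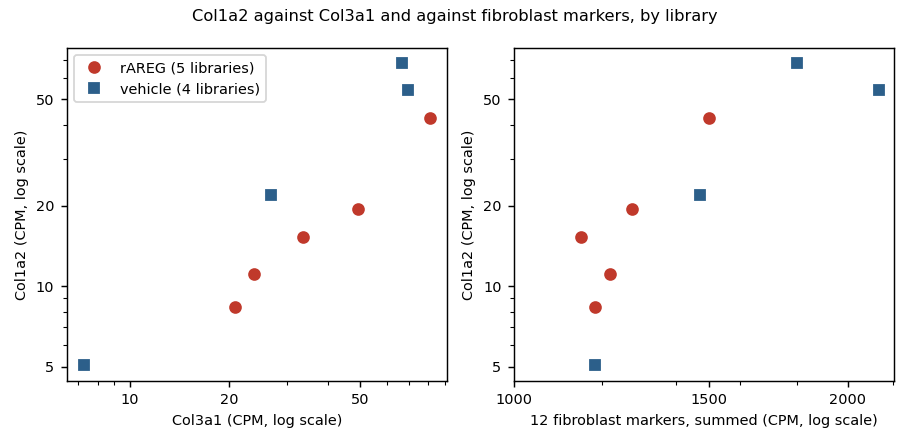
Level of Col1a2 in CPM (y axes, log scale) against Col3a1 (left) and against the summed level of 12 fibroblast markers (right) in CPM (x axes, log scale), for 5 rAREG libraries (circles) and 4 vehicle libraries (squares). Levels run together in both panels, and in the left panel each vehicle library has a Col1a2 to Col3a1 ratio above the highest rAREG ratio, 0.526.

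The promoter windows of Col1a2 and Col3a1 are shown because the levels of these genes followed each other across libraries while their ratio was apart between the groups. They are RefSeq windows on GRCm38.p6, both on the plus strand, at chr6:4505368-4505667 for Col1a2 and chr1:45311288-45311587 for Col3a1. The RefSeq start of Col1a2 is 4505618, while the gene span given above starts at 4504814. The whole Col1a2 window thus lies inside that span. Capitals mark CCAAT and GGGCGG on either strand and TATAAA.
Col1a2: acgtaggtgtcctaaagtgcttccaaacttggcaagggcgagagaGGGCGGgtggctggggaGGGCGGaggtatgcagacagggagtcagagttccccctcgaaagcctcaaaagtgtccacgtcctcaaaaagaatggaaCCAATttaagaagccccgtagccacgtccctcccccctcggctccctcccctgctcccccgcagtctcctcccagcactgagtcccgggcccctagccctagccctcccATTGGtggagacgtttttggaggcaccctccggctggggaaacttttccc
Col3a1: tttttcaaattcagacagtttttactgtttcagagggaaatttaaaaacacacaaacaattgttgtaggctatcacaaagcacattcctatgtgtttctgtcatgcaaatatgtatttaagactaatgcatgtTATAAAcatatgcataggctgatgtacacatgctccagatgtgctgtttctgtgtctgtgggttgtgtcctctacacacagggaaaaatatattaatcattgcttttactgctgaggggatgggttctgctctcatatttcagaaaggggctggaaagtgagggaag
GC content was 61.0% in the Col1a2 window and 37.7% in the Col3a1 window. The Col1a2 window holds 1 CCAAT on each strand and 2 copies of GGGCGG, and the Col3a1 window holds 1 TATAAA, a motif on either strand in 13.6% of all windows and in 9.26% of the windows of the 71 genes. A match describes these letters and says nothing of a factor binding there.

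Fibril-associated collagens, which coat the surface of fibrils, had 7 tested genes, 6 of them higher and 1 lower in rAREG by value, with a median log2 fold change of 0.19 and 0 called. Col9a2 (chromosome 4, 121039385 to 121055322), a chain of the cartilage collagen IX, had the smallest p of all 48 genes. It was at 23.9, 23.7, 20.4, 38.1 and 24.2 CPM in rAREG libraries, against 12.6, 16.0, 20.1 and 16.3 CPM in vehicle libraries. The groups did not overlap, though rAREG replicate 3 and vehicle replicate 3 nearly met, and rAREG replicate 4 was the highest. rAREG over vehicle, the log2 fold change was 0.68 ± 0.21 (SE, with a 95% interval of 0.25 to 1.12 and an adjusted p of 0.122 by edgeR), and it was 0.51 without rAREG replicate 4. Of the other chains of collagen IX, 1 was higher and 1 lower by value. Col9a1 was at 9.52 ± 3.83 CPM (SD) over the 5 rAREG libraries and 6.57 ± 6.92 CPM (SD) over the 4 vehicle libraries. Col9a3 was at 6.92 ± 2.63 CPM (SD) over the 5 rAREG libraries and 8.51 ± 1.999 CPM (SD) over the 4 vehicle libraries. Without vehicle replicate 4, the highest library for Col9a1, the log2 fold change of Col9a1 was 1.55 (edgeR, adjusted p = 0.0647), against 0.55 with all libraries. Col14a1 was at 21.8 ± 5.88 CPM (SD) over the 5 rAREG libraries and 15.6 ± 2.08 CPM (SD) over the 4 vehicle libraries. The log2 fold change of Col14a1 was 0.48 ± 0.21 (SE, with an adjusted p of 0.330 by edgeR). Col16a1, the most abundant of the class, was at 77.9 ± 13.6 CPM (SD) over the 5 rAREG libraries and 68.3 ± 8.35 CPM (SD) over the 4 vehicle libraries. Col16a1 had a log2 fold change of 0.19 ± 0.14 (SE, with an adjusted p of 0.568 by edgeR). Col12a1 was at 7.24 CPM in rAREG and 6.84 CPM in vehicle and Col20a1 at 13.2 CPM in rAREG and 12.2 CPM in vehicle.

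Among the remaining collagens, Col18a1, a basement membrane collagen from which endostatin is cut, was the most abundant at 166 ± 18.7 CPM (SD) over the 5 rAREG libraries and 185 ± 26.3 CPM (SD) over the 4 vehicle libraries. For Col18a1 the log2 fold change was −0.16 ± 0.11 (SE, with an adjusted p of 0.591 by edgeR). Its relative Col15a1 was at 10.0 ± 2.15 CPM (SD) over the 5 rAREG libraries and 7.93 ± 2.21 CPM (SD) over the 4 vehicle libraries. The log2 fold change of Col15a1 was 0.32 ± 0.27 (SE, with an adjusted p of 0.664 by edgeR). Col17a1, the transmembrane collagen of hemidesmosomes, was at 15.8 ± 3.55 CPM (SD) over the 5 rAREG libraries and 10.8 ± 3.11 CPM (SD) over the 4 vehicle libraries. Col17a1 had a log2 fold change of 0.54 ± 0.24 (SE, with an adjusted p of 0.344 by edgeR). The groups overlapped for all 3 genes.

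Laminins stood lower in rAREG by value in 8 of 9 tested genes, where 50.8% of all genes tested were lower, and 0 were called. Endothelial and fibroblast markers lay the same way: 7 of 9 tested endothelial markers were lower by value, with a median log2 fold change of −0.21, and 7 of 9 tested fibroblast markers, with a median of −0.32, beside −0.22 for the laminins. Other marker lists did not. Higher by value were 6 of 8 tested pericyte and smooth muscle markers (median 0.19) and 8 of 10 tested myeloid and dendritic markers (median 0.19). So were 8 of 13 tested thymic epithelial markers (median 0.0999), all 3 tested megakaryocyte and platelet markers (median 0.90) and 3 of 5 tested thymocyte markers (median 0.0041). The part of any of these cells in the laminin values was not tested. The summed level of all 11 laminin genes was 724, 794, 749, 619 and 754 CPM in rAREG libraries, against 910.3, 847, 811 and 778 CPM in vehicle libraries, so that rAREG replicate 2 lay above vehicle replicate 4. At an unadjusted p under 0.05 there were 2 of 9, Lamb1 and Lamc1, both lower, where 6.44% of all genes tested were lower at that threshold. The Lamb1 and Lamc1 chains are shared by many laminins, among them the laminin-511 of vessels and epithelia. Lamb1 (chromosome 12, 31265234 to 31329644) was at 124, 131, 131, 93.6 and 114 CPM in rAREG libraries, against 156, 164, 151 and 123 CPM in vehicle libraries. Lamc1 (chromosome 1, 153218922 to 153332786) was at 10.97, 9.49, 11.1, 6.61 and 13.2 CPM in rAREG libraries, against 17.6, 12.1, 17.7 and 17.4 CPM in vehicle libraries. For each gene 1 vehicle library fell among the rAREG libraries, replicate 4 for Lamb1 and replicate 2 for Lamc1. In log2 fold change, Lamb1 was at −0.32 ± 0.12 (SE, with a 95% interval of −0.57 to −0.079 and an adjusted p of 0.205 by edgeR). Lamc1 was at −0.66 ± 0.23 (SE, with a 95% interval of −1.14 to −0.17 and an adjusted p of 0.190 by edgeR). With each library left out in turn it ran from −0.40 to −0.24 for Lamb1 and from −0.77 to −0.53 for Lamc1.

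Laminin-332, the laminin that epithelia lay down under hemidesmosomes, contains the products of Lama3 and Lamb3. Lamb3 (chromosome 1, 193207699 to 193343878) was at 252, 307, 222, 191 and 264 CPM in rAREG libraries, against 339.7, 285, 255 and 259.6 CPM in vehicle libraries. The lowest pair of libraries for Lamb3 were rAREG replicates 3 and 4 and the highest was vehicle replicate 1, and the groups overlapped. For Lamb3 the log2 fold change was −0.21 ± 0.13 (SE, with a 95% interval of −0.47 to 0.060 and an adjusted p of 0.514 by edgeR). Lama3 was at 90.6 ± 11.7 CPM (SD) over the 5 rAREG libraries and 99.8 ± 14.1 CPM (SD) over the 4 vehicle libraries. For Lama3 the log2 fold change was −0.14 ± 0.12 (SE, with an adjusted p of 0.667 by edgeR). Lamb3 stood above its partner Lama3, at 2.77 ± 0.634 times its level over the 5 rAREG libraries and 2.88 ± 0.438 times over the 4 vehicle libraries (both ± SD).

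Lama5 (chromosome 2, 180176373 to 180225859), the alpha chain of laminin-511, was at nearly the same mean level in both groups. It was at 78.1, 73.8, 78.4, 56.5 and 70.1 CPM in rAREG libraries, against 67.9, 77.1, 69.7 and 70.1 CPM in vehicle libraries. rAREG replicate 4 was the lowest library, and the other rAREG libraries lay within or just above the vehicle range. On the log2 scale the difference was 0.0028 ± 0.12 (SE, with a 95% interval of −0.24 to 0.25 and an adjusted p of 0.993 by edgeR), and its sign turned with several alternatives, so that no direction is given. Lamb2, the beta chain of synaptic and vascular laminins, was at 48.9 ± 5.11 CPM (SD) over the 5 rAREG libraries and 58.4 ± 8.91 CPM (SD) over the 4 vehicle libraries. The log2 fold change of Lamb2 was −0.25 ± 0.13 (SE, with an adjusted p of 0.431 by edgeR). Lama4, the alpha chain known from blood vessels, was at 29.2 ± 3.06 CPM (SD) over the 5 rAREG libraries and 30.8 ± 1.19 CPM (SD) over the 4 vehicle libraries. Lama4 had a log2 fold change of −0.080 ± 0.14 (SE, with an adjusted p of 0.867 by edgeR). Lama2, known from muscle, was at 4.26 ± 0.976 CPM (SD) over the 5 rAREG libraries and 5.81 ± 1.81 CPM (SD) over the 4 vehicle libraries. For Lama2 the log2 fold change was −0.44 ± 0.35 (SE, with an adjusted p of 0.626 by edgeR). The summed level of the 12 endothelial markers given above overlapped between the groups.

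**Figure D4:**
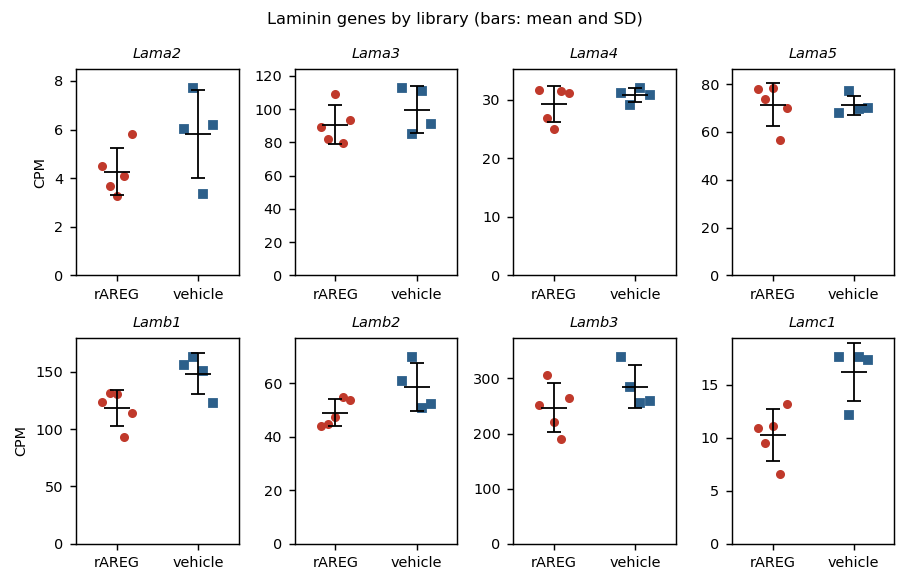
Level in CPM (y axes, from 0) of 8 tested laminin genes in 5 rAREG libraries (left, circles) and 4 vehicle libraries (right, squares), with mean and SD as bars. The groups overlap in each panel, and the mean is lower in rAREG in 7 panels, all but Lama5.

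Among the integrin genes, Itgb4 and Itga6 had the highest mean levels, and these 2 genes held 18.7% of the summed vehicle CPM of the 71 genes. Their products pair in alpha6beta4, the laminin-332 receptor of hemidesmosomes, but which chains were paired was not measured. Itgb4 (chromosome 11, 115974709 to 116008412) was at 324, 402, 410.0, 365 and 377 CPM in rAREG libraries, against 434, 434, 393 and 412 CPM in vehicle libraries. Itga6 (chromosome 2, 71745616 to 71858416) was at 184, 223, 187, 229 and 197 CPM in rAREG libraries, against 208, 193, 218 and 202 CPM in vehicle libraries. The groups overlapped for both, and 3 vehicle libraries were above all rAREG libraries for Itgb4. Itgb4 had a log2 fold change of −0.15 ± 0.099 (SE, with a 95% interval of −0.36 to 0.053 and an adjusted p of 0.532 by edgeR). Itga6 had one of −0.0082 ± 0.10 (SE, with a 95% interval of −0.22 to 0.20 and an adjusted p of 0.984 by edgeR), the sign of which turned with the scaling. As folds, these intervals run from 0.779 to 1.04 for Itgb4 and from 0.859 to 1.15 for Itga6. Itgb4 stood at 1.85 ± 0.224 times Itga6 over the 5 rAREG libraries and 2.04 ± 0.187 times over the 4 vehicle libraries (both ± SD).

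Itgb1 and its laminin-binding partners had means close to each other in the groups. Itgb1 (chromosome 8, 128685654 to 128733200), the beta chain that pairs with most alpha chains, was at 75.5, 81.2, 72.3, 79.9 and 69.6 CPM in rAREG libraries, against 90.1, 68.3, 65.9 and 78.5 CPM in vehicle libraries. Itga3 (chromosome 11, 95044474 to 95076801), whose product binds laminin-332 and laminin-511 with that of Itgb1, was at 108, 119.7, 95.1, 102 and 129 CPM in rAREG libraries, against 106, 134, 93.6 and 124 CPM in vehicle libraries. For both genes the range of the rAREG libraries lay inside that of the vehicle libraries. As a log2 fold change this was 0.00017 ± 0.12 (SE, with a 95% interval of −0.24 to 0.24 and an adjusted p of 0.999 by edgeR) for Itgb1, with no stable sign. For Itga3 it was −0.044 ± 0.12 (SE, with a 95% interval of −0.30 to 0.21 and an adjusted p of 0.919 by edgeR). Itga7 (chromosome 10, 128933818 to 128958282), the laminin receptor chain of muscle, was at a low level. It was at 10.3, 6.33, 6.03, 7.12 and 7.90 CPM in rAREG libraries, against 6.04, 7.71, 6.21 and 2.80 CPM in vehicle libraries, with a log2 fold change of 0.38 ± 0.32 (SE, with a 95% interval of −0.29 to 1.05 and an adjusted p of 0.656 by edgeR).

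Itga8 (chromosome 2, 12106632 to 12301922) encodes the alpha8 chain, a receptor with beta1 for nephronectin and other RGD ligands, and was the integrin gene with the smallest p. It was at 7.74, 4.75, 7.42, 7.63 and 6.32 CPM in rAREG libraries, against 11.6, 15.4, 12.4 and 7.85 CPM in vehicle libraries. The groups did not overlap, though rAREG replicate 1 and vehicle replicate 4 nearly met, at counts of 9 to 16 UMIs in rAREG libraries and 14 to 28 UMIs in vehicle libraries. rAREG over vehicle, the log2 fold change was −0.80 ± 0.27 (SE, with a 95% interval of −1.36 to −0.24 and an adjusted p of 0.168 by edgeR). The tested genes whose groups did not overlap were thus Col9a2, Col6a5 and Itga8, 3 of 48, where 4.92% of all genes tested were apart in this way.

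**Figure D5:**
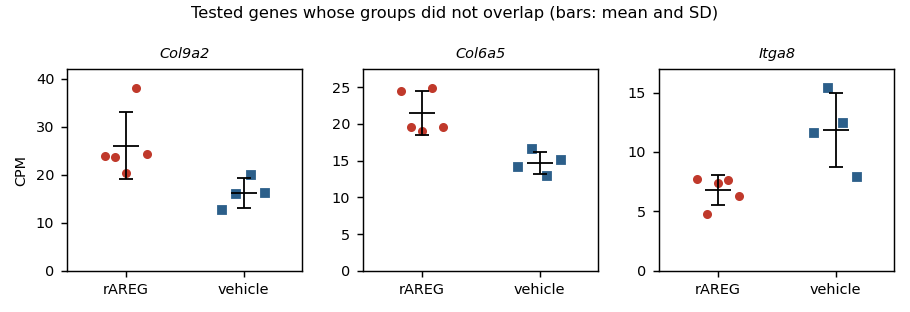
Level in CPM (y axes, from 0) of Col9a2, Col6a5 and Itga8 in 5 rAREG libraries (left, circles) and 4 vehicle libraries (right, squares), with mean and SD as bars. The rAREG libraries lie above the vehicle libraries for Col9a2 and Col6a5 and below them for Itga8, and the gap is narrowest for Col9a2 and Itga8.

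The RGD receptor chains Itgav and Itgb5, which pair with each other to bind vitronectin, showed no difference beyond their spread. Itgav (chromosome 2, 83724397 to 83806916) was at 22.6, 24.8, 18.1, 16.3 and 21.6 CPM in rAREG libraries, against 25.7, 24.8, 16.7 and 18.5 CPM in vehicle libraries. Itgb5 (chromosome 16, 33829665 to 33949338) was at 14.2, 11.1, 15.3, 18.3 and 14.2 CPM in rAREG libraries, against 9.56, 22.6, 8.59 and 15.1 CPM in vehicle libraries. For Itgb5 the rAREG libraries lay within the range of the vehicle libraries. In log2 fold change, Itgav was at −0.055 ± 0.19 (SE, with a 95% interval of −0.45 to 0.34 and an adjusted p of 0.938 by edgeR). Itgb5 was at 0.085 ± 0.26 (SE, with a 95% interval of −0.46 to 0.64 and an adjusted p of 0.926 by edgeR).

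Integrins of blood cells were present at low levels. Itgb2 (chromosome 10, 77530252 to 77565708), the beta chain of leukocyte integrins, was at 4.52, 6.33, 10.2, 4.58 and 11.1 CPM in rAREG libraries, against 6.54, 14.9, 7.64 and 10.1 CPM in vehicle libraries, and its groups overlapped. Its log2 fold change was −0.38 ± 0.33 (SE, with a 95% interval of −1.07 to 0.30 and an adjusted p of 0.664 by edgeR). Itgal (chromosome 7, 127296260 to 127335138), which pairs with it in the lymphocyte receptor LFA-1, was at 5.81, 8.44, 4.64, 5.09 and 8.96 CPM in rAREG libraries, against 4.03, 4.40, 3.82 and 5.61 CPM in vehicle libraries. The log2 fold change of Itgal was 0.56 ± 0.33 (SE, with a 95% interval of −0.14 to 1.25 and an adjusted p of 0.494 by edgeR), so that the partners had opposite signs and neither passed. Itgam, the alpha chain of the myeloid receptor Mac-1, was at 12.7 ± 5.87 CPM (SD) over the 5 rAREG libraries and 11.7 ± 3.63 CPM (SD) over the 4 vehicle libraries. The 10 measured of 13 thymocyte markers summed to 63.3 to 107.5 CPM in rAREG libraries and 60.6 to 93.7 CPM in vehicle libraries, and the 11 measured of 14 myeloid and dendritic markers to 483 to 657 CPM in rAREG libraries and 448 to 564 CPM in vehicle libraries. Itga2b, a chain of the platelet fibrinogen receptor, averaged 8.61 CPM in rAREG and 7.98 CPM in vehicle. Its partner Itgb3 averaged 7.39 CPM in rAREG and 7.54 CPM in vehicle. The 5 megakaryocyte and platelet markers, Itga2b among them, summed to 43.2 to 66.5 CPM in rAREG libraries and 25.3 to 39.6 CPM in vehicle libraries, without overlap, and the smallest adjusted p among them was 0.0504 (edgeR), for Gp9. Most of the difference lay in Pf4 and Gp9, which averaged 19.6 and 17.2 CPM in rAREG and 10.6 and 6.79 CPM in vehicle. Ppbp and Gp1bb averaged 4.05 and 3.96 CPM in rAREG and 3.01 and 3.32 CPM in vehicle. Taken singly, 0 of the 3 tested markers of this list had groups without overlap, where 4.92% of all genes tested did. The part of such cells in the levels of these integrin genes was not tested.

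The 23 genes that did not pass the filter on low counts were 12 collagen, 2 laminin and 9 integrin genes, with 0 to 25 UMIs per library. Their highest mean was that of the fibril-associated collagen gene Col22a1, at 7.58 CPM in rAREG and 3.92 CPM in vehicle. All 3 short-chain network collagens (Col8a1, Col8a2 and Col10a1), both measured collagen-binding integrin alpha chains (Itga10 and Itga11) and the fibronectin and VCAM-1 receptor chains Itga4, Itga5 and Itga9 were in this set. So were Lama1 and Lamc3, the fibrillar Col5a2, the transmembrane Col13a1 and Col23a1, Col19a1, Col26a1, and the leukocyte chains Itgad, Itgae, Itgax and Itgb7. In 1 library or more, Col1a1, Col8a1, Itga4, Itgad, Itgae and Itgax had a count of 0, which allows up to 3 counts. With the filter left off edgeR tested all 23 and called 0, with a smallest adjusted p of 0.327, for Col22a1. An unadjusted p under 0.05 was found for 2 of them, Col22a1 and Col4a6, where 11.9% of all 15080 genes were under it.

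Of 97 tested genes in 6 lists of matrix partners, processing enzymes, receptors and adaptors, 2 were called, both lower in rAREG, where 1.05% of all genes tested were called. A count of 2 does not set the lists apart from that background. Adamts1, a secreted protease that cleaves proteoglycans, fell: it was at 83.2, 50.1, 73.7, 74.3 and 86.4 CPM in rAREG libraries, against 103, 113, 124 and 113 CPM in vehicle libraries, at −0.62 ± 0.13 (SE, with an adjusted p of 0.0242 by edgeR) in log2 fold change. Fmod, a proteoglycan that binds collagen fibrils, fell as well, at 47.1, 33.8, 28.8, 33.6 and 32.7 CPM in rAREG libraries, against 87.1, 64.4, 42.5 and 57.8 CPM in vehicle libraries, and −0.85 ± 0.19 (SE, with an adjusted p of 0.0360 by edgeR). The Adamts1 libraries did not overlap between the groups, and those of Fmod did. Fmod is known from connective tissue cells, and the part of the fibroblast content given above in its difference was not tested. With each library left out in turn, the log2 fold change ran from −0.68 to −0.51 for Adamts1 and from −0.995 to −0.65 for Fmod, below 0 in each fit. Of these 2 genes, only Adamts1 was called without rAREG replicate 3 or rAREG replicate 5, and only Fmod without vehicle replicate 3. The number called over the lists was 0 without rAREG replicate 2, rAREG replicate 4, vehicle replicate 1 or vehicle replicate 2. In those 4 fits the calls over all genes were 28, 54, 18 and 43, against 122 with all libraries. Over all fits with 1 library left out, the adjusted p ran from 0.0232 to 0.084 for Adamts1 and from 0.00914 to 0.147 for Fmod (edgeR). Adamts1 stood for 1 of 14 tested proteases and inhibitors, and Fmod for 1 of 18 tested matrix glycoproteins.

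In the other 4 lists edgeR called 0 genes. Over all 6 lists 19 of 97 genes had an unadjusted p under 0.05 and 61 were lower in rAREG by value, where 13.3% of all genes tested were under that p and 50.8% were lower. Among 10 basement membrane partners, the laminin-binding proteoglycan gene Agrn had the smallest p, at 215 ± 31.5 CPM (SD) over the 5 rAREG libraries and 259 ± 25.4 CPM (SD) over the 4 vehicle libraries. The log2 fold change of Agrn was −0.27 ± 0.11 (SE, with an adjusted p of 0.303 by edgeR). In this list 1 gene had an unadjusted p under 0.05. Among 22 collagen-processing genes it was Bmp1, the protease that trims procollagen, at 133 ± 9.69 CPM (SD) over the 5 rAREG libraries and 110.0 ± 15.2 CPM (SD) over the 4 vehicle libraries. Bmp1 had a log2 fold change of 0.28 ± 0.11 (SE, with an adjusted p of 0.262 by edgeR). In this list 2 genes had an unadjusted p under 0.05. Among 24 integrin adaptors, which tie integrins to actin and keratin, 19 were lower and 5 higher in rAREG by value, with a median log2 fold change of −0.14, and 5 had an unadjusted p under 0.05. The smallest p was that of Tns3, a tensin, at 149.7 ± 4.98 CPM (SD) over the 5 rAREG libraries and 187 ± 27.3 CPM (SD) over the 4 vehicle libraries. For Tns3 the log2 fold change was −0.32 ± 0.10 (SE, with an adjusted p of 0.153 by edgeR), and the groups did not overlap. Among 9 other matrix receptors it was Bcam, a receptor for Lama5, at 130.5 ± 16.5 CPM (SD) over the 5 rAREG libraries and 171 ± 22.4 CPM (SD) over the 4 vehicle libraries. In log2 fold change Bcam was at −0.39 ± 0.12 (SE, with an adjusted p of 0.110 by edgeR). In this list 4 genes had an unadjusted p under 0.05. DESeq2 called 3 genes over the 6 lists, where 9 of the 97 received no adjusted p, and it called 1.97% of the 10054 genes to which it gave one.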

How the data were processed

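Bulk MARS-seq libraries of sorted TEC, 5 of the rAREG group and 4 of the vehicle group by their titles, were compared. Raw UMI counts of 15080 genes in the deposited table were the basis of the tests; the highest count of a gene over the libraries was never under 6. The authors also deposited log2 fold changes of PBS over AREG, the reverse of the direction used here, and adjusted p-values of their own fit. Per the submitters' processing notes, the build was mm10 and the tools were DESeq2, HTSeq, STAR 2.5.2b, cutadapt and bcl2fastq, in no given order; the sources used here give neither strand use nor the treatment of reads that match several genes.

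The main test was edgeR's robust quasi-likelihood F test (edgeR 4.0.16 in R 4.3.3) with TMM factors, on the 11636 genes that filterByExpr kept by group, with Benjamini-Hochberg adjustment over all of them; 3444 genes did not pass that filter. The biological coefficient of variation was 0.148. Standard errors were obtained as the absolute log2 fold change over the square root of F. The fit was tested on simulated data first. Correlations of log2 CPM between the chains of collagens IV and VI were tested by two-sided exact permutation. Their p-values were adjusted together with those of Col1a2 with Col3a1 and of each of these genes with the summed fibroblast markers. The latter relations were examined after their values were seen, and their p-values are not given. Gene positions come from GENCODE M21 (GRCm38), where each of the 71 symbols matched 1 gene, and promoter windows from RefSeq (GRCm38.p6), where 49 of the 71 matched. Tables and figures used pandas 2.3.3 and matplotlib 3.10.9.

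The gene families, their roles, the 6 matrix lists and the 7 marker lists were chosen with earlier results of these data known; within the families genes were taken by symbol. A fixed rule chose 22 genes for full values, 1 of which is not reported here: in each of the 4 families (collagens, laminins, integrin alpha and beta chains) the 3 with the smallest p and the 3 with the highest mean level, and always Col4a1, Col4a2, Lama5, Itga6, Itgb1 and Itgb4. Of each matrix list the genes called are named, or else the 1 with the smallest p. Col1a2, Col3a1, Col9a1, Col4a6, Col6a4 and other genes were also named to account for each class, after their values were seen.

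Marker sums without their most abundant genes were added after seeing the data. Alternatives were DESeq2 1.42.0, limma 3.58.1 voom with sample weights, scaling by RLE, upper-quartile or total count, leaving the filter off or asking for 10 counts in 4 libraries, a block for replicate number, and each library left out. No 2 libraries agreed within counting noise; the smallest chi-square between 2 libraries was 2.54 per degree of freedom.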

Additional observations from a re-analysis of the deposited data

Results flagged for a closer look

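Among the 22 genes chosen for full values, each with 1 group of 5 and 1 group of 4 libraries, 3 of 44 groups held a library whose distance to its nearest neighbour took up most of the range of its group by Dixon's rule, which chance meets in about 1 of 20 groups. Col4a1 stood at 241.2 CPM in rAREG replicate 3, where the nearest rAREG library was at 201.8 CPM. Col9a2 stood at 38.15 CPM in rAREG replicate 4, where the nearest was at 24.24 CPM, and without that library its log2 fold change was 0.51. Lamc1 stood at 12.11 CPM in vehicle replicate 2, where the nearest was at 17.38 CPM, and without that library its log2 fold change was −0.77.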

How the results depend on the processing

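The count of called collagen, laminin and integrin genes was 0 under each alternative run, and the smallest adjusted p of any of them was 0.0647 (edgeR, Col9a1 without vehicle replicate 4). No paired analysis was used for the main values: same-numbered libraries of the groups had correlations of 0.0876, 0.00182, 0.147 and 0.242 by title number, not all over 0.1. With a replicate block 0 of these genes were called, by title numbers, which leaves out rAREG replicate 5 (302 of all genes called), or by library numbers, which leaves out rAREG replicate 4 (169 of all genes called). The median log2 fold change of the collagens ran from −0.037 to 0.24 with 1 library left out, and was highest without vehicle replicate 2. The number of called genes in the matrix lists ran from 0 to 2 in those fits. Signs turned for 8 of the 22 genes chosen for full values, all with a small log2 fold change. With the replicate block by library numbers, Col4a2 was at 0.021, Col6a2 at 0.032, Itgav at 0.039 and Itgb1 at −0.0050. Itga6 was at 0.0027 with upper-quartile factors, 0.013 with total-count scaling and 0.0067 with the replicate block by title numbers. Without a filter Itgb1 was at −0.0044 and Lama5 at −0.0021, and with voom Lama5 was at −0.00095. With 1 library left out the log2 fold change ran from −0.073 to 0.020 for Col4a2, −0.12 to 0.033 for Col6a2, −0.12 to 0.041 for Itga3, −0.049 to 0.033 for Itga6, −0.16 to 0.048 for Itgav, −0.056 to 0.097 for Itgb1, −0.090 to 0.41 for Itgb5 and −0.027 to 0.083 for Lama5. For these genes the cause was not tested. Depth limits the rarer genes: with the filter left off, the median SE of the log2 fold change was 0.52 over the 23 genes it removed, and 0 were called.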
